A study of Mus musculus with 48 samples.

Results

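The comparison described here set kidney slices labelled as normoxia at 24 h against control slices at 24 h. Its members were the 12 libraries, of 48 in the series, whose labels gave either condition at that time: 3 of C57BL/6J and 3 of DBA/2J mice on each side. Every gene was followed as the mean change over both strains, with the strain in the model. C57BL/6J and DBA/2J are inbred strains, and their offspring founded the BXD recombinant inbred lines. Bulk RNA-seq was done on kidney slices of male mice that were treated outside the body, and other conditions of the series were tunicamycin, cyclosporin A, normoxia-hyperoxia (a model of reperfusion) and controls at 6 h. The normoxia condition is labelled as a model of ischemia, and its libraries carry the word ischemia in their titles. The controls come from a part of the study that is titled for nephrotoxicity, so the part of the study and the condition cannot be told apart. The oxygen level of the control slices, the timing of oxygen exposure, the age of the mice, and the number of slices and animals behind a library are not given in the labels. The replicates carry biological replicate numbers, but nothing says that they came from separate mice. The p-values therefore measure only the spread between these samples, which may be technical.

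Cells sense oxygen through prolyl hydroxylases, which mark the alpha subunits of the hypoxia-inducible factors (HIF) for destruction by the VHL complex when oxygen is present. When oxygen is short, HIF accumulates and raises genes of glucose uptake, glycolysis, vessel growth and red cell production. The kidney's proximal tubule reabsorbs most of the filtered solute, draws its energy mainly from fatty acid oxidation in mitochondria and makes glucose, while injured tubule cells lose these functions and express markers such as KIM-1 (Havcr1) and keratins.

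The change from control to normoxia was broad. Of 17375 genes tested, 14250 (82.0%) differed over both strains in edgeR's quasi-likelihood test at an adjusted p under 0.05: 7359 (42.4%) were higher under normoxia and 6891 (39.7%) were lower. With a log2 fold change beyond 1 required as well, 4210 genes (24.2%) were higher and 3504 (20.2%) were lower. In 11277 genes (64.9%) normoxia and control libraries did not overlap within either strain and stood in the same order in both. Within single strains, 13231 genes (76.1%) changed in C57BL/6J and 12914 (74.3%) in DBA/2J. The counts of each gene list below are to be read against these shares. Total counts ran from 12384733 to 24426584 per library, and no pair of libraries of a group agreed within counting noise. Kidney markers were present throughout: the lowest level among the 12 libraries was 184 CPM (counts relative to library size, TMM-scaled) for Slc34a1 of the proximal tubule and 575 CPM for Umod of the thick ascending limb. The median log2 fold change of all genes was 0.05. It became -0.22 when libraries were scaled by total counts alone, and the split became 5935 higher and 8360 lower.

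Most genes of the HIF pathway were lower under normoxia than in control slices. Of the 24 genes in the list of oxygen sensing and HIF targets, 19 fell and 4 rose (20 and 3 with scaling by total counts), with a median log2 fold change of -1.35 (-1.49 in C57BL/6J and -1.29 in DBA/2J). The summed level of the list, to which Ndrg1 adds the most counts, went from 6945 to 7258 CPM in C57BL/6J controls to 3292 to 3839.9 CPM under normoxia, while in DBA/2J it was 5982 to 7640.3 CPM and 5955 to 5975 CPM. Among the sensors, Egln3, an oxygen-sensing prolyl hydroxylase that HIF itself induces, fell from 157 to 252 CPM in controls to 16.3 to 19.6 CPM under normoxia. Egln1 fell as well (log2 fold change -1.53), while Egln2 rose (0.71). Vhl, which encodes the recognition subunit of the ligase complex, fell (-0.75). Among the factors, Hif1a (chr12:73901375-73947530, GRCm38) had a lowest, median and highest level of 151, 204 and 211 CPM in the 6 controls and 72.3, 75.9 and 90.6 CPM in the 6 normoxia libraries. Its groups did not overlap (log2 fold change -1.31 ± 0.07 SE, edgeR adjusted p = 9.6e-11). Epas1, which encodes HIF-2 alpha, went the other way, from 81.5 to 107 CPM to 133 to 309.5 CPM (1.15, adjusted p = 4.1e-08).

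Among the targets, the largest falls were those of Adm, which encodes the vasodilator peptide adrenomedullin, and Ankrd37, an ankyrin-repeat gene induced by HIF. Adm (chr7:110627661-110629820) stood at 475, 573 and 561 CPM in the C57BL/6J controls and 406, 468 and 418 CPM in the DBA/2J controls. Under normoxia it stood at 10.2, 8.30 and 8.04 CPM and 8.67, 12.5 and 17.7 CPM. Every control was above every normoxia library (log2 fold change -5.48 ± 0.16 SE, edgeR adjusted p = 5.2e-12). Ankrd37 ran from 28.9 to 40.6 CPM in controls to 0.604 to 1.12 CPM under normoxia (-5.27 ± 0.15 SE, adjusted p = 2.8e-14). Vegfa, the main vessel growth factor, had a lowest, median and highest level of 775, 1138 and 1233 CPM in controls and 251, 292 and 312 CPM under normoxia (-1.87 ± 0.10 SE, adjusted p = 6.7e-11). Epo, which encodes erythropoietin, was low throughout, at 4.73 to 6.95 CPM and 2.07 to 3.16 CPM, and fell (-1.19 ± 0.15 SE, adjusted p = 1.5e-06). Bnip3 (-2.07) and Bnip3l (-1.27), receptors for mitochondrial autophagy, fell, as did Ddit4 (-3.35), an inhibitor of mTOR signalling. The collagen prolyl hydroxylases P4ha1 (-2.54) and P4ha2 (-2.23) also fell. Car9 (0.65) and Car12 (1.67), carbonic anhydrases known as HIF targets, rose. Ndrg1 did not pass the test over both strains (0.07, adjusted p = 0.44). It stood at 2591, 2829 and 2840.3 CPM in C57BL/6J controls and 2098, 1615 and 2044 CPM under normoxia, and at 2398, 3038 and 2414 CPM and 4231, 4189 and 4023 CPM in DBA/2J. It fell by 0.52 on the log2 scale in C57BL/6J and rose by 0.66 in DBA/2J, and that difference passed the test of the strain difference (adjusted p = 3.7e-04).

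The 250 bases before the start of 4 genes of the oxygen and glycolysis lists show where the core of the hypoxia response element occurs in them. They are the RefSeq sequences of GRCm38.p6, read 5′ to 3′ along the transcript, and capitals mark ACGTG or GCGTG on either strand (CACGT or CACGC where the match is on the other strand). Adm is at chr7:110627407-110627656 (plus strand), Ankrd37 at chr8:45999851-46000100 (minus), Slc16a3 at chr11:120948817-120949066 (plus) and Hk2 at chr6:82774455-82774704 (minus).
Adm: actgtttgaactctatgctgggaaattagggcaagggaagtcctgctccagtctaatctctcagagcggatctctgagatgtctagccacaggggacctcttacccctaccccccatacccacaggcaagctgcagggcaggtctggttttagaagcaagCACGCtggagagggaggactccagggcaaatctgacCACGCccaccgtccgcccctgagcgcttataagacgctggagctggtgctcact
Ankrd37: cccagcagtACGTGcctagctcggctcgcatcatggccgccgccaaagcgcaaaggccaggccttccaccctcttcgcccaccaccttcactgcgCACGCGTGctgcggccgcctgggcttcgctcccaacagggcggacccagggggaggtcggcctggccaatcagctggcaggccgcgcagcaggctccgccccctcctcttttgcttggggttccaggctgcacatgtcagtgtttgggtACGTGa
Slc16a3: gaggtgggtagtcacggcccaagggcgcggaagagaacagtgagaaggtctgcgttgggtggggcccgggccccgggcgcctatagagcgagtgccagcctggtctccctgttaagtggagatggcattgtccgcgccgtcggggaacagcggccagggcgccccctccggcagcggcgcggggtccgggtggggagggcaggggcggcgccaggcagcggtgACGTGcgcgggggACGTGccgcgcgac
Hk2: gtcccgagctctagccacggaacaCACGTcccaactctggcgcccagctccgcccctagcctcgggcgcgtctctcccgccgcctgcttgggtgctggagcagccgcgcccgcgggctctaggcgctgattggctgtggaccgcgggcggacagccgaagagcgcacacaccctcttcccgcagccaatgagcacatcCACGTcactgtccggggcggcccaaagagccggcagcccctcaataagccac
Adm, Slc16a3 and Hk2 hold 2 matches each and Ankrd37 holds 4, of which 2 overlap. Of the oxygen list, 15 of the 20 genes with a promoter in the table (75%) held at least 1 match, and of the glycolysis list 16 of 22 (72.7%). The share was 53.9% (6519 of 12089) over all genes tested that had a promoter in the table, and 11 of 14 (78.6%) for immediate early genes. In the list of gluconeogenesis it was 4 of 10 (40%) and in that of tubular injury 7 of 20 (35%). A match is a description of the letters and not evidence of binding.

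Glycolysis fell nearly as a whole. Of 23 genes for glycolysis and lactate, 20 fell and 1 rose, with a median log2 fold change of -1.79. For glucose entry, Slc2a1 (chr4:119108711-119137983), the transporter GLUT1, stood at 1719.7, 2015 and 1832 CPM in C57BL/6J controls and 1235, 1828 and 1561 CPM in DBA/2J controls. Under normoxia its levels were 70.2, 91.2 and 85.0 CPM and 57.3, 54.8 and 57.6 CPM. The groups did not overlap in either strain (log2 fold change -4.63 ± 0.11 SE, edgeR adjusted p = 3.6e-15). Hk2, the inducible hexokinase that traps glucose in the cell, had a lowest, median and highest level of 159, 199 and 215 CPM in controls and 1.05, 1.21 and 1.44 CPM under normoxia (-7.32 ± 0.09 SE, adjusted p = 2.0e-17). At the other end of the pathway, Slc16a3, the lactate exporter MCT4, ran from 169 to 228 CPM in controls to 0.418 to 1.04 CPM (-8.03 ± 0.14 SE, adjusted p = 7.6e-16). For both genes every normoxia library lay far below every control. The activator of phosphofructokinase Pfkfb3 (-4.71), the enolase Eno2 (-5.93), the pyruvate kinase Pkm (-2.81) and the lactate dehydrogenase Ldha (-1.68) fell too. Gapdh, often taken as a stable reference gene, fell from 1972 to 3059 CPM to 858 to 1184 CPM (-1.33). Pfkm, the muscle form of phosphofructokinase, was the 1 gene of the list that rose (1.09). Aldoc (-0.06) and Slc16a1 (0.13) did not pass the test over both strains.

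Gluconeogenesis moved opposite to glycolysis: all 11 genes of its list rose (10 with scaling by total counts), with a median log2 fold change of 2.81. G6pc (chr11:101367561-101377903), the catalytic subunit of glucose-6-phosphatase, releases free glucose in the last step of the pathway. It stood at 1.87, 4.99 and 3.18 CPM in C57BL/6J controls and 255, 149 and 248 CPM under normoxia. In DBA/2J it stood at 20.7, 16 and 27.9 CPM and 856, 952 and 1008 CPM. Both strains rose, from a control level that was higher in DBA/2J (log2 fold change 5.73 ± 0.24 SE, edgeR adjusted p = 1.8e-09). Slc37a4, which carries glucose-6-phosphate into the endoplasmic reticulum, ran from 10.4 to 15.7 CPM to 114 to 299 CPM (4.06 ± 0.14 SE, adjusted p = 2.1e-11). Pck1, the cytosolic PEP carboxykinase, ran from 49.5 to 135 CPM to 515 to 859 CPM (3.29 ± 0.21 SE, adjusted p = 5.6e-08). The smallest rise was that of the aminotransferase Gpt2 (0.26).

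Genes of mitochondrial energy production rose together. In the fatty acid oxidation list 25 of 26 genes rose and 1 fell (median 1.43). All 20 genes of the citric acid cycle rose (median 1.09; with scaling by total counts 18 rose and 1 fell), as did all 26 nuclear genes of the respiratory chain (median 1.17) and the 13 protein genes of the mitochondrial genome (median 3.78). Cpt1a, the gatekeeper of fatty acid entry into mitochondria, rose by 1.62 on the log2 scale, and Ppara, the receptor that drives these genes, by 2.48. Cyp4a10, a fatty acid omega-hydroxylase, ran from 2.53 to 4.07 CPM to 31.5 to 132 CPM (4.27 ± 0.15 SE, adjusted p = 2.7e-11), though its reads may be shared with close relatives. The peroxisomal enzyme Ehhadh ran from 20.1 to 68.1 CPM to 242 to 312 CPM (2.83). Pdk4, the kinase that blocks the entry of pyruvate into the citric acid cycle, was the exception. It stood at 398, 353 and 347 CPM in C57BL/6J controls and 45.9, 111 and 66.7 CPM under normoxia, and at 388, 395 and 383 CPM and 5.91, 9.22 and 9.43 CPM in DBA/2J. It fell in both strains (log2 fold change -3.93 ± 0.21 SE, edgeR adjusted p = 1.4e-08), and more in DBA/2J. In the citric acid cycle the largest rises were those of Ogdh (1.62 ± 0.06 SE) and of the succinate dehydrogenase subunits Sdhd (1.54 ± 0.08 SE) and Sdhc (1.44 ± 0.06 SE). Citrate synthase, Cs, rose least (0.14, adjusted p = 0.018). The respiratory chain genes lay in a narrow band, from 0.66 for Cycs, which encodes cytochrome c, to 1.56 for Ndufs1, a core subunit of complex I.

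The 37 genes of the mitochondrial genome took 6.82% ± 0.97 of the counts in C57BL/6J controls and 23.9% ± 1.5 under normoxia (SD, n = 3). In DBA/2J they took 3.52% ± 0.12 and 12.3% ± 0.53 (SD, n = 3). The share was higher by 12.9 percentage points over both strains (exact two-sided permutation within strains, p = 0.005, the smallest p the 400 arrangements allow). Within each strain no normoxia library overlapped with a control. The gene mt-Co1, which encodes the core subunit of cytochrome c oxidase, stood at 15449, 12782 and 12127 CPM in C57BL/6J controls and 73229, 87183 and 74910.4 CPM under normoxia (2.55 ± 0.10 SE, adjusted p = 9.5e-13). The largest fitted folds were those of mt-Atp8 (5.33), mt-Atp6 (5.20) and mt-Nd4l (5.17). These are uncertain, since mt-Atp8 overlaps mt-Atp6 and mt-Nd4l overlaps mt-Nd4, and mitochondrial reads can be shared with nuclear copies. With mitochondrial genes removed before scaling, 14249 of 17400 genes were called over both strains, 7153 higher and 7096 lower, and 13952 of them were shared with the 14250.

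**Figure D1:**
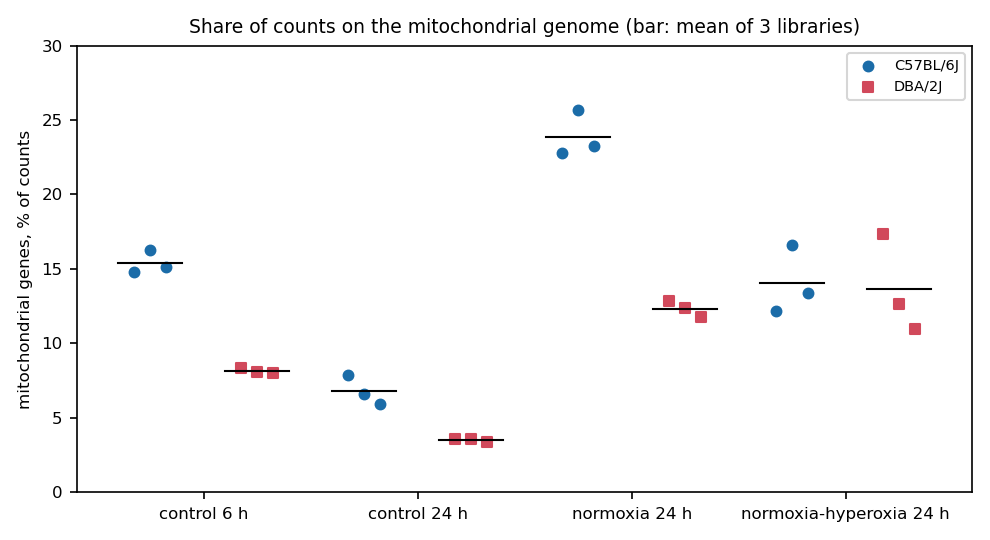
Share of counts on genes of the mitochondrial genome (vertical axis, %) in each library of the controls at 6 h and 24 h, normoxia and normoxia-hyperoxia, by strain; horizontal bars are means of 3 libraries. The C57BL/6J normoxia libraries average 23.9% and their 24 h controls 6.82%, and in DBA/2J the averages are 12.3% and 3.52%.

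Stress programmes were lower under normoxia. All 22 genes for stress of the endoplasmic reticulum and the integrated stress response fell, with a median log2 fold change of -2.14. The chaperone Hspa5 (BiP) fell from 3878 to 6174 CPM to 360.1 to 621 CPM (-3.33), and the transcription factors Atf4 (-2.97) and Ddit3, also called CHOP (-4.04), fell as well. Trib3, a pseudokinase induced by both factors, had a lowest, median and highest level of 94.9, 121 and 143 CPM in controls and 1.03, 1.35 and 1.58 CPM under normoxia (-6.50 ± 0.10 SE, edgeR adjusted p = 6.2e-17). Asns, which makes asparagine, ran from 199 to 279.7 CPM to 3.47 to 4.64 CPM (-5.94 ± 0.08 SE, adjusted p = 2.1e-17). Chac1, which degrades glutathione, ran from 45.4 to 65.6 CPM to 0.281 to 1.43 CPM (-6.14 ± 0.13 SE, adjusted p = 2.3e-15). No normoxia library reached the range of the controls for these 3 genes.

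All 19 immediate early genes fell, with a median of -3.74. In all 19 the 3 normoxia libraries lay below the 3 controls in both strains, where 31.6% of all genes tested did. Fos (-3.74) and Jun (-2.63), subunits of the factor AP-1, were among them. Fosl1, another AP-1 subunit, stood at 285 to 396 CPM in the controls. In C57BL/6J normoxia it had 3 counts in all 3 libraries together, and the ratio of control to normoxia was 5601 (95% counting interval 1916 to 27158). Atf3, a stress-induced repressor, ran from 277 to 432 CPM to 1.38 to 3.03 CPM (-7.41 ± 0.14 SE, edgeR adjusted p = 6.5e-15). Of 16 heat shock genes 13 fell and 3 rose (median -1.87). The inducible chaperones Hspa1a (-5.73 ± 0.17 SE) and Hspa1b (-5.69 ± 0.18 SE), whose reads cannot be fully told apart, fell most, followed by the small heat shock protein Hspb1 (-4.58 ± 0.08 SE). The 3 that rose were Dnaja1 (0.21) and the mitochondrial chaperonins Hspd1 (0.40) and Hspe1 (0.31). With scaling by total counts none of the 3 was called higher.

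Of 17 genes for NRF2 targets and the pentose phosphate pathway, 14 fell and 1 rose (median -1.62). Hmox1 (chr8:75093621-75100589), heme oxygenase 1, stood at 4031, 4103 and 3948 CPM in C57BL/6J controls and 23.3, 22.9 and 20.8 CPM under normoxia. In DBA/2J it stood at 2963, 3846 and 3271 CPM and 42.7, 38.8 and 40.4 CPM. Controls and normoxia were far apart, and the normoxia levels were higher in DBA/2J (log2 fold change -6.93 ± 0.09 SE, edgeR adjusted p = 2.4e-17). Slc7a11, the cystine importer that feeds glutathione synthesis, ran from 69.1 to 117 CPM to 0.0532 to 0.287 CPM (-8.79 ± 0.21 SE, adjusted p = 3.5e-13), and the thioredoxin reductase Txnrd1 from 1354 to 2039.9 CPM to 106 to 131 CPM (-3.84 ± 0.07 SE). G6pdx (-1.62) and Pgd (-2.37), the NADPH-making steps of the pentose phosphate pathway, fell. Me1, a further source of NADPH, was the 1 that rose (1.81).

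Cytokines and NF-kappaB feedback genes fell in 19 of 22 cases and rose in 2 (median -3.74). Il6, an inflammatory cytokine, stood at 64.2, 56.9 and 46.8 CPM in C57BL/6J controls and 169, 114 and 105 CPM in DBA/2J controls. It had 2 counts in the 3 C57BL/6J normoxia libraries together and none in DBA/2J. The ratio of control to normoxia was 1655 in C57BL/6J (95% counting interval 458 to 13665). In DBA/2J, Il6 was at least 858-fold lower, computed against 3 counts in each normoxia library. In C57BL/6J the chemokine Ccl20 was lower by at least 85.8-fold. The chemokine Ccl2 fell from 16.8 to 36.8 CPM to 0.479 to 1.58 CPM (-4.71), Cxcl1 by 7.44 and Lif by 8.78 on the log2 scale. Among the signalling genes, Nfkbia (-2.91) and Tnfaip3 (-3.87), inhibitors of NF-kappaB that it induces, also fell. The 2 that rose were Il18 (1.34) and Il34 (0.66).

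Tubular injury genes had the lowest median of the pathway lists, -4.69, with 21 of 24 lower and 2 higher. Havcr1 (chr11:46735080-46779578), the injury marker KIM-1, stood at 235, 196 and 239.9 CPM in C57BL/6J controls and 791, 295 and 509 CPM in DBA/2J controls. Under normoxia it stood at 1.44, 1.12 and 1.38 CPM and 5.81, 3.17 and 4.04 CPM (log2 fold change -7.16 ± 0.30 SE, edgeR adjusted p = 2.7e-09). Controls and normoxia did not overlap, and DBA/2J was the higher strain on both sides. Lcn2, which encodes the injury marker NGAL, ran from 48.9 to 98.8 CPM to 0.577 to 3.97 CPM (-4.86 ± 0.33 SE, adjusted p = 2.0e-07). Among cytoskeletal genes, Krt19 ran from 128 to 186 CPM to 0.141 to 0.750 CPM (-8.25 ± 0.17 SE) and Krt20, which is also on the urothelial list, from 42.5 to 78.9 CPM to 0.0551 to 0.288 CPM (-8.51 ± 0.28 SE). Vim, the intermediate filament vimentin, fell by 2.32, and Sox9, a transcription factor of repairing tubules, by 4.63. Itgb6 (0.62) and Sema5a (0.38) rose, against the direction of the list, but with scaling by total counts only 1 member of the list was higher and 22 were lower.

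In the list of matrix genes and targets of TGF-beta or YAP, 22 of 23 fell and none rose (median -2.02). The matrix protease Mmp10 had no count in any normoxia library and was at least 20.2-fold (C57BL/6J) and 49.6-fold (DBA/2J) lower. Another protease, Mmp3, ran from 9.50 to 20.8 CPM to 0 to 0.319 CPM. Fibronectin, Fn1, fell from 96.3 to 229 CPM to 11.8 to 31.1 CPM (-2.94), and the YAP targets Ccn1 (-4.50), Ccn2 (-3.62) and Ankrd1 (-6.16) fell. Col1a2 did not pass the test (0.14).

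**Figure D2:**
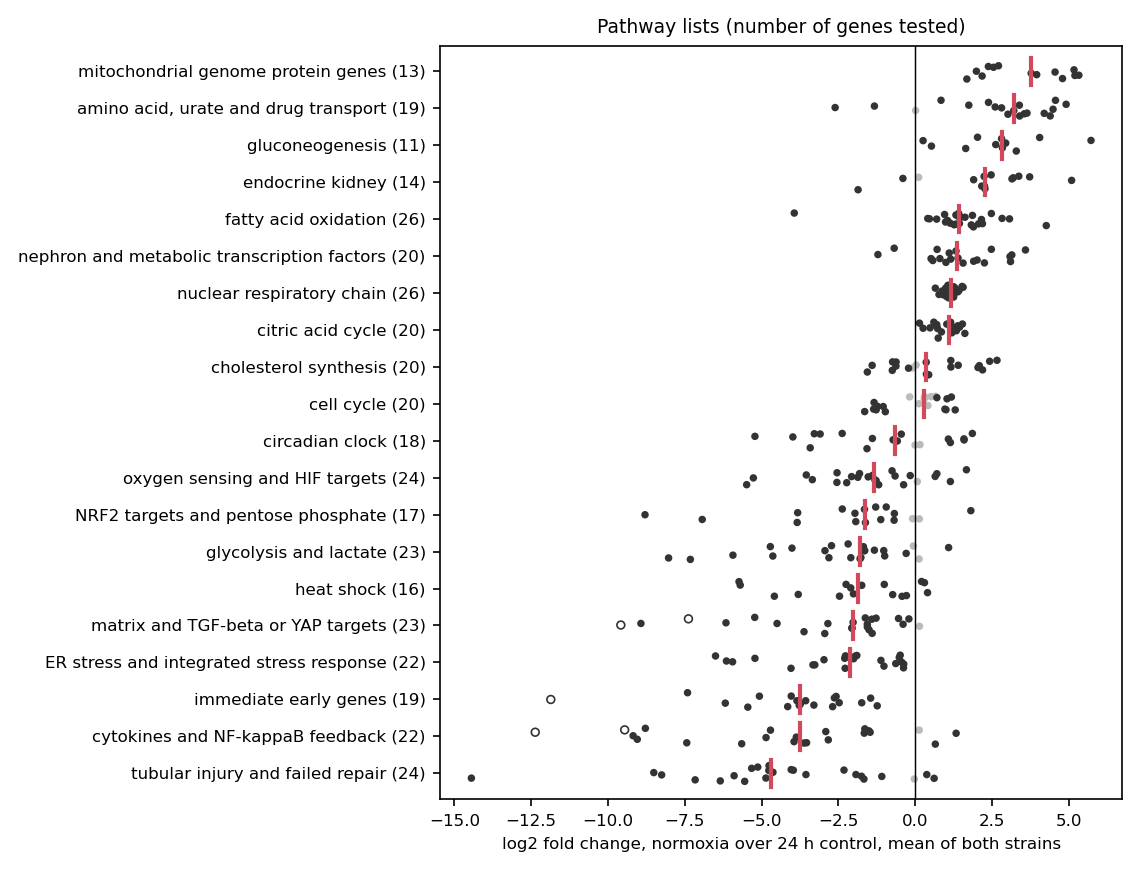
Log2 fold change of each tested gene of the 20 pathway lists (normoxia over 24 h control, mean of both strains, horizontal axis); dark points passed the test, grey points did not, red bars are list medians. The 5 open circles are genes with 3 counts or fewer in a group and more than a set minimum in the other, whose fitted values are not bounds. Medians run from -4.69 for tubular injury to 3.78 for the mitochondrial genome.

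**Figure D3:**
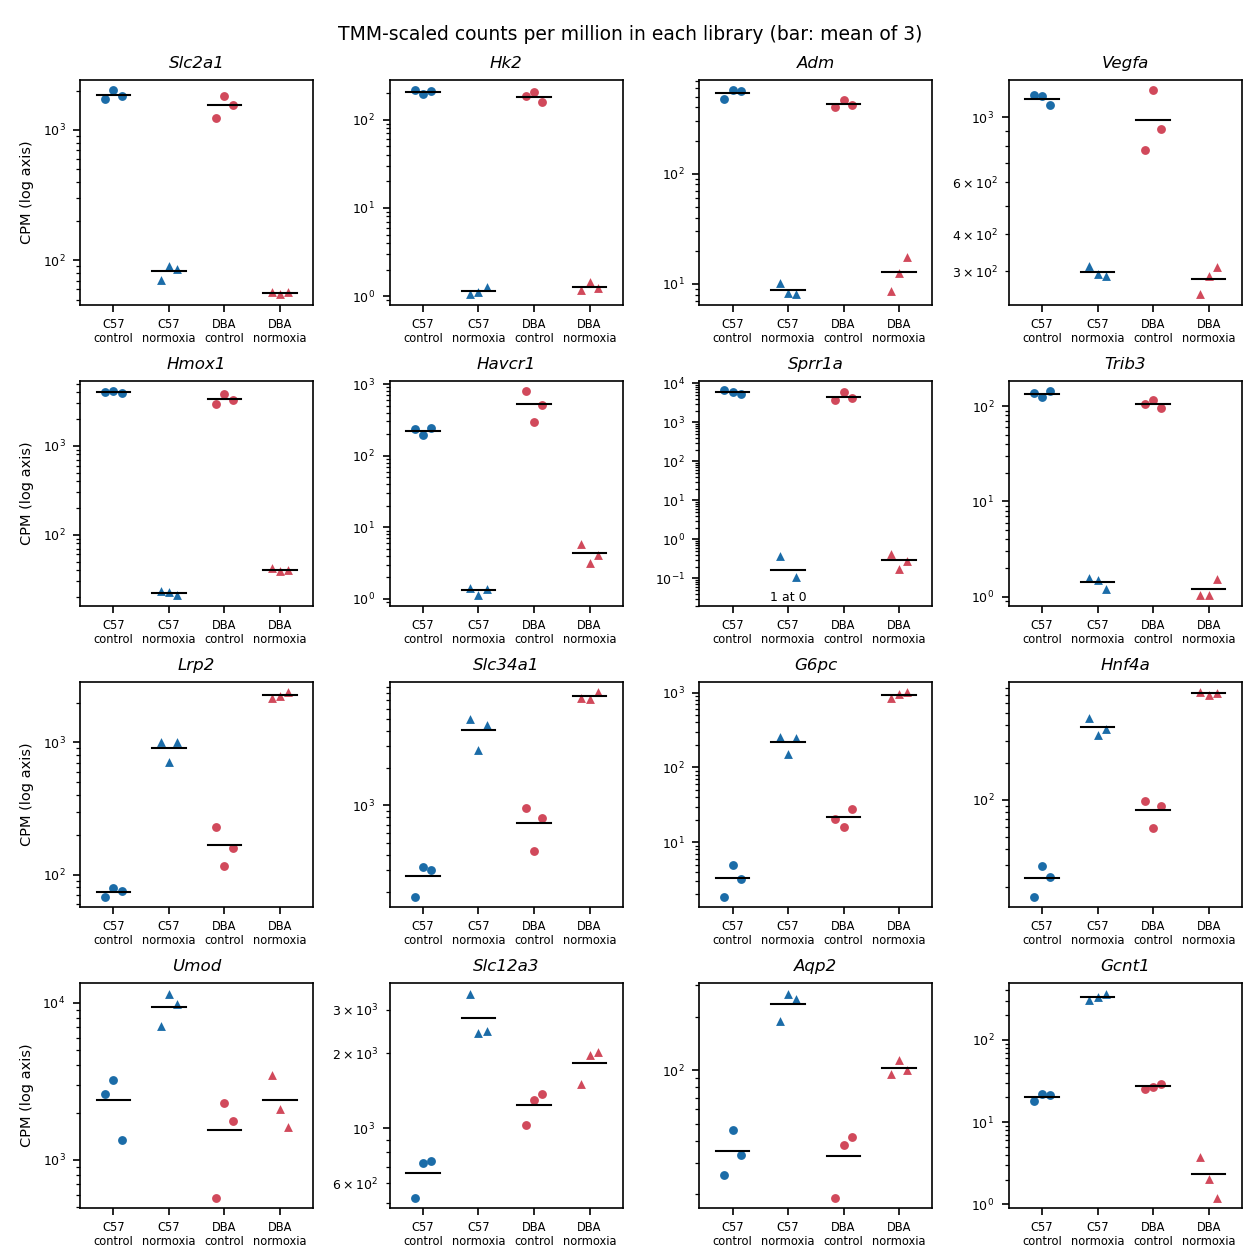
Level of 16 genes in each of the 12 libraries (vertical log axes, TMM-scaled CPM); bars are means of 3 libraries, circles are controls and triangles normoxia. Slc2a1, Hk2, Adm, Vegfa, Hmox1, Havcr1, Sprr1a and Trib3 lie lower under normoxia in both strains, Lrp2, Slc34a1, G6pc and Hnf4a lie higher, and Gcnt1 goes up in C57BL/6J and down in DBA/2J.

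Markers of the proximal tubule had the highest medians among the nephron segments. In bulk tissue, a change in the number of cells of a type and a change in RNA per cell cannot be told apart. All 16 markers of the early segments (median 3.43) and all 15 of the straight segment (median 3.71) rose, where 42.4% of all genes tested were higher. In 16 and 14 of them the 3 normoxia libraries lay above the 3 controls in both strains, where 33.3% of all genes tested did. Slc34a1 (chr13:55398187-55415592), the main phosphate transporter of the brush border, stood at 184, 319 and 305 CPM in C57BL/6J controls and 4947, 2816 and 4408 CPM under normoxia. In DBA/2J it stood at 954, 430.2 and 791 CPM and 7364, 7208 and 8112 CPM. Every normoxia library was above every control of either strain (log2 fold change 3.65 ± 0.24 SE, edgeR adjusted p = 5.9e-08). The endocytic receptors megalin, Lrp2 (68.3 to 227 CPM to 714 to 2383 CPM, 3.69 ± 0.16 SE), and cubilin, Cubn (11.8 to 37.7 CPM to 186 to 464 CPM, 3.98 ± 0.16 SE), rose alike. The dicarboxylate transporter Slc13a3 had the largest change among early markers (4.16 ± 0.23 SE, adjusted p = 1.9e-08), and the organic anion transporter Slc22a6 rose too (3.76 ± 0.22 SE). In the straight segment the largest were Slc22a30 (4.68 ± 0.16 SE), Slc22a7 (4.57 ± 0.33 SE) and the amino acid transporter Slc7a13 (4.38 ± 0.12 SE). The Slc22a transporters are a family of close relatives, and their counts carry that uncertainty. Cyp7b1, an oxysterol hydroxylase on the same list, varied within groups: it stood at 33.5, 164 and 143 CPM in C57BL/6J normoxia replicates 1, 2 and 3 and at 25.4, 1.73 and 1.16 CPM in those of DBA/2J, and at 0.973 to 2.91 CPM in the controls.

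Segments of the distal nephron had smaller medians. In the thick ascending limb 12 of 13 markers rose and none fell (median 1.82). Umod, which encodes uromodulin, stood at 2639.5, 3205 and 1334 CPM in C57BL/6J controls and 7071, 11419 and 9746 CPM under normoxia. In DBA/2J it stood at 575, 2288 and 1761 CPM and 3463, 2101 and 1620.4 CPM, and the groups overlapped there. It rose over both strains (log2 fold change 1.31 ± 0.37 SE, edgeR adjusted p = 0.0080), but in DBA/2J alone the change was 0.64 and did not pass the test (adjusted p = 0.29). The strain difference did not pass either (adjusted p = 0.25). The sodium-potassium-chloride transporter Slc12a1 ran from 129.9 to 781 CPM to 520.0 to 3382 CPM (1.81 ± 0.38 SE, adjusted p = 0.0014). Tighter changes were found for the chloride channel subunit Bsnd (3.41 ± 0.11 SE), the potassium channel Kcnj1 (3.15 ± 0.14 SE) and Cldn10 (2.73 ± 0.18 SE).

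In the distal convoluted and connecting tubule 12 of 13 markers rose and 1 fell (median 1.35). Slc12a3, the thiazide-sensitive sodium chloride transporter, stood at 526, 724 and 735 CPM in C57BL/6J controls and 3480.0, 2408 and 2458 CPM under normoxia, and at 1034, 1298 and 1379 CPM and 1506, 1976 and 2023 CPM in DBA/2J. The groups did not overlap in either strain (log2 fold change 1.32 ± 0.13 SE, edgeR adjusted p = 3.1e-07). The potassium channel Kcnj16 rose by 4.01 on the log2 scale and the sodium-calcium exchanger Slc8a1 by 3.22. Atp2b1, a calcium pump found in many cell types, fell (-1.10).

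In the collecting duct, 8 of 13 principal cell markers rose and 1 fell (median 0.96). The water channel Aqp2 ran from 19.1 to 46.1 CPM to 94.9 to 269.8 CPM (2.2 ± 0.21 SE, edgeR adjusted p = 2.9e-06), and Hsd11b2, which shields the mineralocorticoid receptor from glucocorticoids, from 19.5 to 41.4 CPM to 179 to 412 CPM (3.12 ± 0.18 SE). Aqp4 had the largest fitted rise of this list (4.58, edgeR adjusted p = 3.6e-05), and its spread is given below. Ptges, a prostaglandin E synthase, fell (-3.46 ± 0.14 SE). Of 15 intercalated cell markers 14 rose and 1 fell (median 2.18). The anion exchanger Slc4a1 (3.71 ± 0.17 SE), the receptor Insrr (3.55 ± 0.19 SE) and the transcription factor Hmx2 (3.40 ± 0.24 SE) rose most, and the receptor tyrosine kinase Kit fell (-1.08).

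The thin limb list was mixed, with 2 of 10 tested markers higher and 4 lower (median -0.10, and -0.36 with scaling by total counts). That median averages unlike values: it was 1.13 in C57BL/6J, where 5 rose and 3 fell, and -2.64 in DBA/2J, where 1 rose and 4 fell. Aqp1, which the proximal tubule also expresses, rose (3.78 ± 0.19 SE). Cldn4, a claudin shared with the collecting duct, fell (-5.98 ± 0.09 SE). Genes of the inner medulla separated the libraries of C57BL/6J normoxia. The urea transporter Slc14a2 stood at 0, 2.07 and 5.40 CPM in its replicates 1, 2 and 3, Fst at 0.0957, 11.2 and 10.6 CPM and the water channel Aqp4, from the principal cell list, at 9.38, 33.6 and 39.9 CPM. In DBA/2J normoxia the same 3 genes stood at 0.0469, 0 and 0 CPM, 0.141, 0.115 and 0 CPM and 7.92, 3.11 and 2.37 CPM. Replicates 2 and 3 of C57BL/6J normoxia were thus higher than replicate 1 for each of these genes, and the part of this in the medullary results was not tested. Without C57BL/6J normoxia replicate 1 the median of the thin limb list was 0.13, and without DBA/2J normoxia replicate 3 it was 0.04.

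Among macula densa and renin cell markers 3 rose and 4 fell of 7 (median -0.36, and -0.63 with scaling by total counts). The median was 0.06 in C57BL/6J and -0.77 in DBA/2J. Pappa2, a protease of the macula densa, ran from 0.148 to 0.601 CPM to 3.83 to 13.2 CPM (4.51 ± 0.17 SE, edgeR adjusted p = 1.2e-12), and the vasopressin receptor Avpr1a from 2.34 to 3.92 CPM to 16.8 to 33.2 CPM (3.13 ± 0.14 SE). Ptgs2, the inducible cyclooxygenase, fell from 95.5 to 166 CPM to 0.526 to 1.43 CPM (-7.39 ± 0.20 SE). Renin, Ren1, fell over both strains (-1.25, adjusted p = 0.015). Its change was -0.11 in C57BL/6J, which did not pass the test (adjusted p = 0.86), and -2.38 in DBA/2J, which did (adjusted p = 0.0043), and the strain difference did not pass (adjusted p = 0.083).

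Lists of glomerular and vascular cells had medians near 0 over both strains. Of 12 podocyte markers 6 fell and 2 rose (median -0.26), which became 8 and 1 (median -0.53) with scaling by total counts. Nphs1, which encodes nephrin of the slit diaphragm, ran from 59.7 to 153 CPM to 45.8 to 106 CPM, with overlap between the groups (-0.60 ± 0.13 SE, edgeR adjusted p = 0.0010). Synpo (-0.81 ± 0.13 SE) and Cdkn1c (-0.80 ± 0.15 SE) fell most. Of 15 endothelial markers 6 rose and 6 fell (median 0.03, which became -0.24 with scaling by total counts). The median was 0.36 in C57BL/6J and -0.30 in DBA/2J. Cdh5, the junction protein VE-cadherin, fell from 219.9 to 558 CPM to 48 to 119 CPM (-2.2 ± 0.16 SE), and Pecam1 fell (-1.06 ± 0.14 SE, adjusted p = 2.8e-05). Plvap, a component of endothelial fenestrae, rose from 43.4 to 67.3 CPM to 154 to 401 CPM (2.26 ± 0.16 SE), and the angiopoietin receptor Tek rose (1.49). Of 15 mesangial, mural and fibroblast markers 5 fell and 1 rose (median -0.13), which became 9 and 0 (median -0.40) with scaling by total counts. The strains went opposite ways on this list, with a median of 0.32 in C57BL/6J, where 5 rose and 2 fell, and of -0.87 in DBA/2J, where 1 rose and 10 fell. The largest fall was that of Tagln, a smooth muscle actin-binding protein (-2.50 ± 0.14 SE), followed by the matrix proteoglycan Dcn (-1.30 ± 0.09 SE).

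Markers of cells outside the nephron and its vessels moved with the condition as well. Of 16 immune cell markers 13 rose and 2 fell (median 1.20; 10 and 3 with scaling by total counts), and their summed level was 248 to 394 CPM in C57BL/6J controls and 803 to 831 CPM under normoxia. In DBA/2J the sums were 332 to 444 CPM and 554 to 659 CPM. Macrophage markers did not move as 1: the chemokine receptor Cx3cr1 (3.22 ± 0.22 SE), C1qa, C1qb, C1qc, Csf1r and Lyz2 were among those that rose. The 2 that fell were Cd68 (-3.09 ± 0.07 SE) and Itgam (-2.45 ± 0.12 SE), and Adgre1 did not pass the test. The 5 tested of 11 markers of fat, adrenal and red cells rose (median 1.65). These were the globin genes and Alas2, the enzyme of heme synthesis in red cell precursors (2.47 ± 0.21 SE), and their sum ran from 24.6 to 69.4 CPM in controls and from 72.4 to 179 CPM under normoxia. Cyp11b1 and Cyp11b2, which define the adrenal cortex, were at 0 in all 12 libraries. Of 5 tested urothelial markers 3 fell and none rose. The median of so few genes was unsteady: it was -2.71 over both strains, -0.33 in C57BL/6J (1 higher and 2 lower), -5.10 in DBA/2J (3 lower), -8.55 with mitochondrial genes removed (3 markers tested) and -0.19 with no filter on low counts (8 tested). The urothelial markers had sums of 46.5 to 85.0 CPM in controls and of 0.634 to 4.20 CPM under normoxia. Krt5, a basal cell keratin, had no count under normoxia, and the uroplakins Upk1b, Upk2 and Upk3a were too low to be tested. The 3 that fell were Krt5, Krt20 and Psca. The part of these cells in the changes of the cytokine, injury and keratin genes was not tested.

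**Figure D4:**
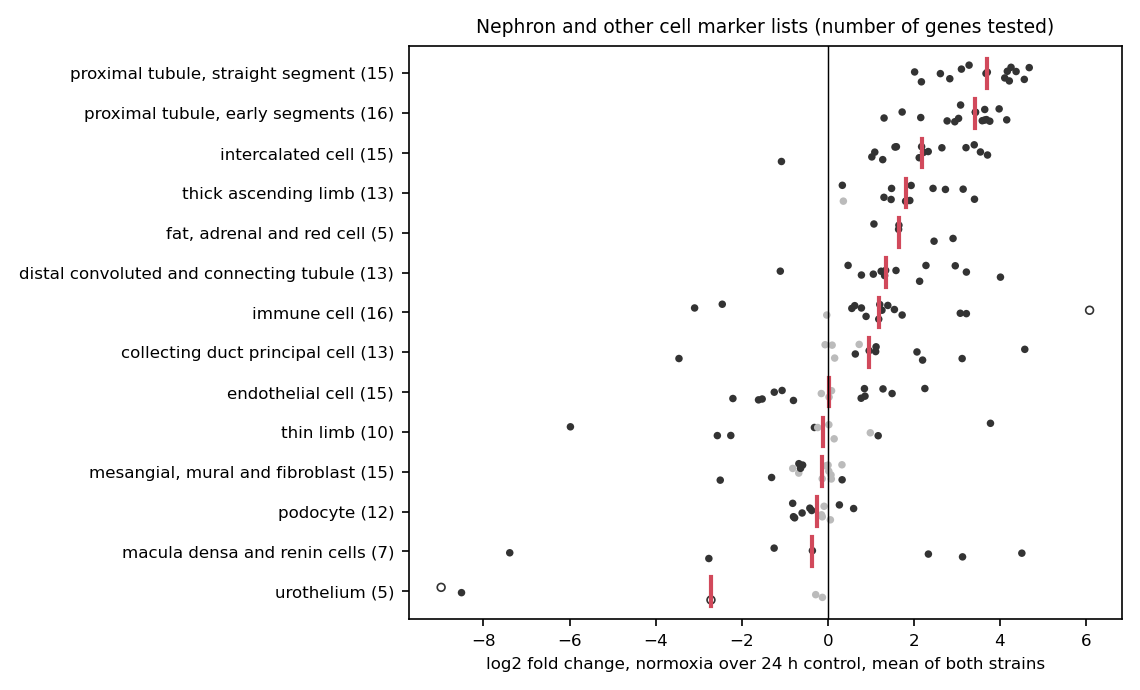
Log2 fold change of each tested gene of the 14 lists of nephron segments and other cell types (normoxia over 24 h control, mean of both strains, horizontal axis); dark points passed the test, grey points did not, red bars are list medians. Proximal tubule lists have the highest medians, 3.71 and 3.43. The 3 open circles are genes with 3 counts or fewer in a group and more than a set minimum in the other, whose fitted values are not bounds.

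Transcription factors and transporters of the tubule rose with the segment markers. Of 20 nephron and metabolic transcription factors 18 rose and 2 fell (median 1.36). Hnf4a (chr2:163506808-163572910), which directs the proximal tubule programme, stood at 16.6, 29.4 and 24.0 CPM in C57BL/6J controls and 453, 334 and 373 CPM under normoxia, and at 97.8, 59.7 and 88.9 CPM and 734, 702 and 729.9 CPM in DBA/2J. No normoxia library overlapped with a control (log2 fold change 3.59 ± 0.16 SE, edgeR adjusted p = 9.2e-10). Maf (3.11 ± 0.11 SE) and Lhx1 (3.15 ± 0.12 SE), factors of the developing nephron, rose too, while Pax8 (-1.21) and Grhl2 (-0.68) fell. Of 19 tested genes for amino acid, urate and drug transport 16 rose and 2 fell (median 3.21). The largest rises were those of Slc22a13 (4.92 ± 0.43 SE), Slc6a20b (4.57 ± 0.15 SE) and the GABA transporter Slc6a13 (4.49 ± 0.14 SE). Slc22a12, the urate transporter URAT1, rose by 3.55 on the log2 scale, while the efflux pumps Abcc4 (-2.60) and Abcb1a (-1.32) fell.

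Endocrine genes of the kidney rose in 11 of 14 cases and fell in 2 (median 2.27). Cyp24a1, which inactivates vitamin D, ran from 0.592 to 4.17 CPM to 28.5 to 176 CPM (5.10 ± 0.33 SE, edgeR adjusted p = 1.3e-07). Cyp27b1, the activating enzyme, did not pass the test (0.12, adjusted p = 0.56). The receptor Vdr (2.26) and Kl (3.20), which encodes the FGF23 co-receptor klotho, rose. In the renin-angiotensin system, Agt (3.73 ± 0.26 SE), which encodes angiotensinogen, and the converting enzyme Ace (3.38 ± 0.15 SE) rose, as did the receptor Agtr1a (2.25). Fgfr1 (-1.86) and the glucocorticoid receptor Nr3c1 (-0.40) fell.

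Over all genes tested, the 5 largest rises that met the rule for named genes were those of G6pc, Notum, Slc22a19, Sucnr1 and Mettl7a2. Notum, an enzyme that inactivates Wnt proteins, ran from 0 to 1.14 CPM to 19.8 to 32.7 CPM (5.71 ± 0.21 SE, edgeR adjusted p = 3.1e-12). Sucnr1, the receptor for extracellular succinate, ran from 0.222 to 1.56 CPM to 13.5 to 76.7 CPM (5.52 ± 0.21 SE, adjusted p = 4.1e-11). Slc22a19 (5.6 ± 0.55 SE) and Mettl7a2 (5.33 ± 0.69 SE) have close relatives and larger errors. The 5 falls that the rule picked by fitted fold were those of Sprr2f, Sprr1a, Sprr2h, Il6 and Cpa4. Fitted folds do not rank genes with an empty group, and the counted ratio of Fosl1 in C57BL/6J (5601) exceeds the bounds of Cpa4. The Sprr genes encode small proline-rich proteins of the squamous cell envelope. Sprr1a (chr3:92483952-92485895) stood at 6609.7, 5982 and 5336 CPM in C57BL/6J controls and 3679, 5879 and 4115 CPM in DBA/2J controls, and at 0.383, 0 and 0.11 CPM and 0.422, 0.173 and 0.279 CPM under normoxia (log2 fold change -14.45 ± 0.27 SE, adjusted p = 2.6e-14). Sprr2f had no count under normoxia and fell at least 1486-fold (C57BL/6J) and 1029-fold (DBA/2J). Sprr2h was at least 851-fold and 617-fold lower, and the carboxypeptidase gene Cpa4 at least 225-fold and 165-fold lower, each against 3 counts in each normoxia library. Members of the Sprr2 family are near-identical, so the split of reads between them is uncertain.

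The size of the change differed between the strains for 2956 genes (17% of those tested), with 1761 (10.1%) changing more positively in DBA/2J and 1195 (6.88%) more negatively. With scaling by total counts the split was 966 and 1584, so the side that leads depends on the scaling. Without C57BL/6J control replicate 3 the count was 1860 (734 and 1126), and without DBA/2J control replicate 3 it was 1937 (721 and 1216). Of the 565 distinct list genes tested, 155 (27.4%) had a strain difference. In the distal convoluted and connecting tubule 8 of 13 markers had a lower change in DBA/2J and none a higher one. That count ran from 6 to 11 over the 19 other settings and left-out libraries, and was 8 with scaling by total counts. Tmem52b, a gene of this segment, stood at 33.5, 65.4 and 49.7 CPM in C57BL/6J controls and 856, 723 and 717 CPM under normoxia, and at 95.3, 98.6 and 141 CPM and 416, 466 and 438 CPM in DBA/2J. The control levels were higher in DBA/2J and the normoxia levels higher in C57BL/6J (difference in log2 fold change -1.97 ± 0.30 SE, edgeR adjusted p = 0.0017). For Slc12a3 the difference was -1.50 ± 0.25 SE (adjusted p = 0.0018).

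Among the stress genes, 13 of 22 for the endoplasmic reticulum and integrated stress response fell less in DBA/2J and 1, Chac1, fell more, a difference lost in the fit of all 48 libraries (adjusted p = 0.25). The count of 13 was 8 with scaling by total counts, 4 in a single fit of all 48 libraries, 5 without C57BL/6J control replicate 3, 5 without DBA/2J control replicate 3, 8 without DBA/2J control replicate 2 and 8 without C57BL/6J normoxia replicate 3. Straight-segment markers had a lower change in DBA/2J in 7 of 15 cases (0 to 12 over the alternatives), with 0 in the single fit of all 48 libraries, 4 without C57BL/6J control replicate 1 and 12 with no filter on low counts. Early proximal markers showed none in either direction, and up to 5 lower and 2 higher over the alternatives. Mesangial, mural and fibroblast markers had a lower change in DBA/2J in 7 of 15 cases (5 to 13 over the alternatives). Dcn, which forms part of the collagen matrix, fell from 34.3, 41.4 and 32.5 CPM to 8.62, 9.17 and 9.89 CPM in DBA/2J and from 31.9, 37.5 and 36.5 CPM to 21.7, 26 and 20.2 CPM in C57BL/6J (-1.33 ± 0.17 SE, adjusted p = 1.9e-04, and 0.10 in the fit of all 48 libraries).

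The 5 genes with the smallest p for the strain difference were Hgsnat, Gcnt1, Gsta2, Tmem108 and Nmrk1. Gcnt1 (chr19:17326141-17372844), a glycosyltransferase that branches O-linked glycans, stood at 18.1, 22.1 and 21.2 CPM in C57BL/6J controls and 303, 336 and 366 CPM under normoxia. In DBA/2J it stood at 25.2, 27.1 and 29.4 CPM and 3.75, 2.02 and 1.21 CPM. It rose in C57BL/6J (4.04 ± 0.20 SE) and fell in DBA/2J (-3.54 ± 0.25 SE), and the difference was -7.57 ± 0.32 SE (edgeR adjusted p = 5.0e-07). Its mean over both strains did not pass the test (0.25, adjusted p = 0.18). Tmem108 was the other 1 of the 5 that went opposite ways, at -1.87 in C57BL/6J and 0.77 in DBA/2J. Over all genes, 194 (1.12%) passed the test in each strain with opposite directions.

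Hgsnat (chr8:25944453-25976753), a lysosomal acetyltransferase that acts on heparan sulfate, stood at 279, 284 and 303 CPM in C57BL/6J controls and 54.0, 56.3 and 57.7 CPM under normoxia. In DBA/2J its levels were 37.4, 41.5 and 42.1 CPM and 36.5, 42.4 and 41.7 CPM. The fall was seen in C57BL/6J (-2.37 ± 0.08 SE), and the change in DBA/2J did not pass the test (-0.0033, adjusted p = 0.97). The difference was 2.36 ± 0.11 SE (edgeR adjusted p = 1.5e-08). Gsta2, a glutathione transferase with close relatives, fell mainly in DBA/2J, from 117, 101 and 103 CPM to 5.20, 4.55 and 3.58 CPM (-4.21 ± 0.25 SE, adjusted p = 3.1e-06). Nmrk1, a kinase of NAD synthesis, rose in both strains, by 2.89 in C57BL/6J and 1.04 in DBA/2J on the log2 scale.

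**Figure D5:**
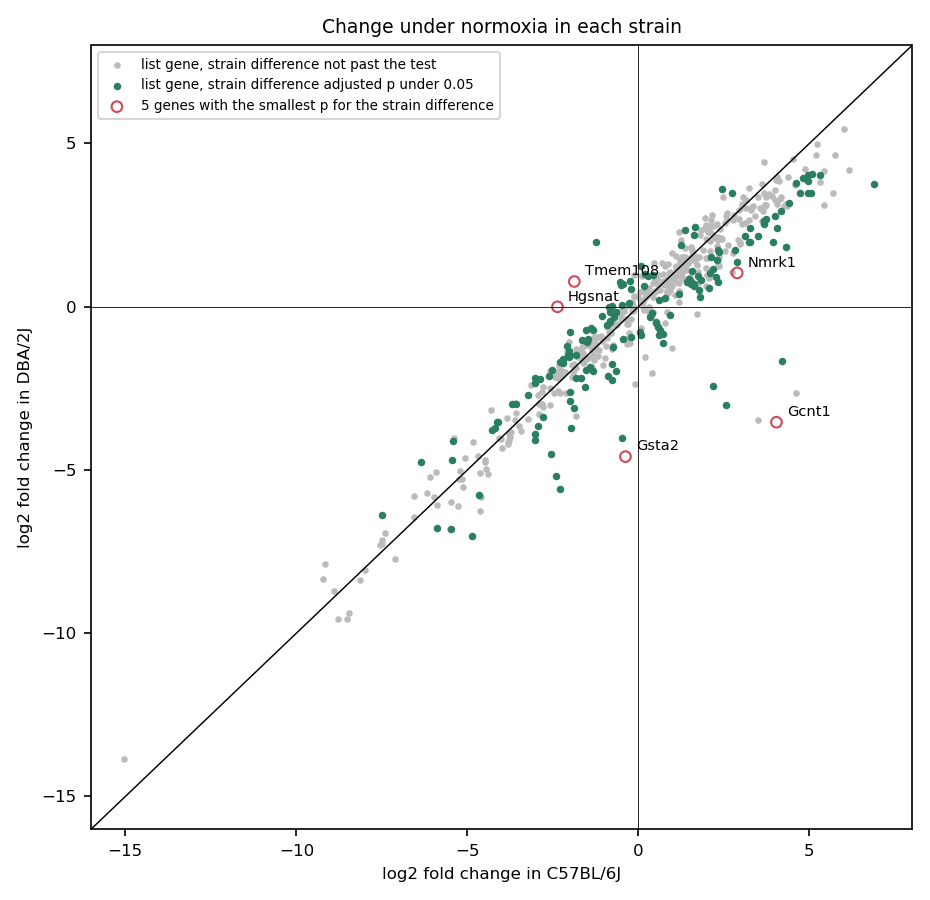
Log2 fold change under normoxia in C57BL/6J (horizontal axis) and DBA/2J (vertical axis) for 557 list genes, with the line of equal change; green points are the 154 with a strain difference at an adjusted p under 0.05. Red circles are the 5 genes with the smallest p for the strain difference, of which Gcnt1 and Tmem108 changed in opposite directions. Left out were 8 genes with 3 counts or fewer in a group and more than a set minimum in the other.

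The 6 h controls and the normoxia-hyperoxia slices give a scale for these levels, on TMM factors of all 48 libraries and with no test. Slc34a1 stood at 2507 ± 818 CPM in C57BL/6J 6 h controls, 269 ± 73.3 in 24 h controls, 4039.7 ± 1072 under normoxia and 87.9 ± 18 under normoxia-hyperoxia (SD, n = 3). Hmox1 stood at 1452 ± 812, 4023 ± 97.9, 22.3 ± 1.35 and 1454 ± 196 CPM in the same order (SD, n = 3). Slc2a1 stood at 2854 ± 602, 1854 ± 151, 82.0 ± 11.5 and 2089 ± 335 CPM (SD, n = 3). In DBA/2J, Slc34a1 stood at 3251 ± 354, 738 ± 278, 7255 ± 436 and 374 ± 79.2 CPM (SD, n = 3). The normoxia libraries had the highest mean of the 4 conditions for Slc34a1 and the lowest for Hmox1 and Slc2a1 in C57BL/6J. Normoxia was not the extreme everywhere. For Itgam in C57BL/6J the 24 h controls stood apart, at 3.05 ± 0.57, 18.7 ± 2.90, 4.62 ± 0.39 and 4.74 ± 0.57 CPM in the same order (SD, n = 3). The mean mitochondrial share in DBA/2J was 13.7% under normoxia-hyperoxia and 12.3% under normoxia. The 24 h controls lay below the 6 h controls for Slc34a1 and above them for Hmox1 in C57BL/6J.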

How the data were processed

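Whole-number counts per gene, which the authors deposited for all 48 libraries, were analysed for 12. Per the labels' protocols, a Qiagen midi kit was used for RNA and the Illumina stranded mRNA ligation kit for libraries. Per the submitters' processing notes, bcl2fastq 2.20.0, FastQC 0.11.8, STAR 2.7.9a and featureCounts 1.5.1 were used with GRCm38. The strand setting, annotation release and read filters are not given in the sources used here.

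Genes passing edgeR's default filter were scaled by TMM and tested by quasi-likelihood on 4 group means (edgeR 4.0.16 with limma 3.58.1, R 4.3.3), with Benjamini-Hochberg adjustment over all genes tested. Mean, single-strain and strain-difference contrasts were taken, and SE is the log2 fold change divided by the root of F. Gene IDs were matched to symbols for 55141 of 55487. On simulated counts, changes of log2 0.5, 1, 2 and 4 were called for 57.4%, 79.6%, 94% and 100% of genes, and 0.12% of unchanged genes were called. In that simulation 16591 of 16785 genes were unchanged, and the changes were set evenly in both directions. In the data 82.0% of genes were called, so the simulated rates do not give the error rates under so broad a change. Counting intervals, at 95%, and bounds against 3 counts in each library cover counting error only. Alternatives were RLE factors, total counts, no filter, DESeq2 1.42.0, an additive model, all 48 libraries, a threshold test, removal of mitochondrial genes, the replicate block, and leaving out each library.

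The members and the 34 gene lists were chosen with earlier results of these data known. Named were up to 3 members a list with the largest log2 fold change, a mean log2 CPM of at least 1, and no overlap of groups in either strain. Also named were the 5 largest rises and falls by fitted fold with a mean of at least 10 CPM, the 5 smallest p for the strain difference, 16 fixed genes, and members that went against their list. Other list members are named for their role, and Cyp7b1, Fst and Slc14a2 for their spread, with their values seen. Some named genes are not reported here.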

Additional observations from a re-analysis of the deposited data

Results flagged for a closer look

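For 31 of the 124 genes that the naming rule picked by size, p or as fixed names, the change under normoxia differed between the strains by edgeR's test of that difference (adjusted p under 0.05, over all genes tested, of which 17% passed). The 31 include Hgsnat, Gcnt1, Gsta2, Tmem108 and Nmrk1, which were picked for their p in this same test, so the count is no result about the named genes. List members named for other reasons, such as Ndrg1, are not among the 124. Values are the change in DBA/2J minus the change in C57BL/6J on the log2 scale. The largest was that of Gcnt1 (-7.57), which went opposite ways in the strains. The change was lower in DBA/2J for Gsta2 (-4.21), Pdk4 (-3.28) and Nmrk1 (-1.85). Hgsnat (2.36) passed the test in C57BL/6J and not in DBA/2J, and the change of Tmem108 (2.65) was higher in DBA/2J.

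Among tubule genes, the rise was smaller in DBA/2J for Tmem52b (-1.97), Slc8a1 (-1.65), Slc12a3 (-1.50), Slc22a30 (-1.27), Aqp1 (-1.23), Kcnj1 (-1.04), Slc6a20b (-1.0), Slc6a13 (-0.94) and Slc7a13 (-0.88). The transcription factors Lhx1 (-1.08) and Maf (0.73) differed in opposite directions. Among metabolic and vascular genes the rise was smaller in DBA/2J for mt-Atp8 (-3.12), Cyp4a10 (-1.57), Ace (-1.21) and Ehhadh (-0.86). The value of mt-Atp8 is uncertain, since its reads overlap those of mt-Atp6.

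Among genes that fell, the fall was larger in DBA/2J for Eno2 (-2.16), Dcn (-1.33), Chac1 (-1.32), Tagln (-1.24), Itgam (-0.87), Ptges (-0.87), Des (-0.72) and Cd68 (-0.59). It was smaller there for Hmox1 (1.13) and Txnrd1 (0.60). Over 19 alternatives the strain difference lost its call in 11 for Maf, 10 for Aqp1 and Slc6a13, 8 for Ehhadh and Slc6a20b, 7 for Des and Ptges, 4 for Itgam, 3 for Chac1, 2 for Slc22a30, and 1 each for Ace, Cd68, Dcn, Kcnj1, Slc7a13 and Txnrd1. No library was tested for standing apart, since groups of 3 are too small for that.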

How the results depend on the processing

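The 14250 genes changed over both strains numbered 14240 with RLE factors, 14211 with DESeq2, 13970 with an additive model, 14750 in a fit of all 48 libraries, 16023 of 32642 with no filter on low counts, and 6150 (3352 higher and 2798 lower) when tested against a log2 change of at most 1. Leaving out 1 library gave 14224 to 14386 genes for the mean change, 12731 to 13520 within C57BL/6J, 12449 to 13102 within DBA/2J, 1860 to 2700 that differed by strain, and 12.5 to 13.2 points for the mitochondrial share. The strain difference was called for 1860 genes without C57BL/6J control replicate 3 and 1937 without DBA/2J control replicate 3, for 2034 (955 higher and 1079 lower in DBA/2J) with all 48 libraries in 1 fit, and for 1146 higher and 1442 lower with mitochondrial genes removed. The cause was not tested. The endothelial median turned to -0.0026 with RLE factors, -0.24 with total counts alone, -0.013 with mitochondrial genes removed, -0.0020 with DESeq2, -0.010 with all 48 libraries, -0.015 without C57BL/6J control replicate 1, -0.033 without C57BL/6J normoxia replicate 2 and -0.052 without DBA/2J control replicate 3, and ranged up to 0.25 (without DBA/2J control replicate 2). The thin limb median turned to 0.13 without C57BL/6J normoxia replicate 1 and 0.04 without DBA/2J normoxia replicate 3, and was -0.33 without C57BL/6J normoxia replicate 3. Gcnt1 passed the test over both strains with no filter (0.26, edgeR adjusted p = 0.0086) and without DBA/2J normoxia replicate 3 (0.42, adjusted p = 0.0058). Of the 124 genes that the naming rule picked by size, p or as fixed names, no other changed its call over both strains in the settings checked gene by gene. The additive model and the test against a log2 change of at most 1 were not checked gene by gene. Other members did: Dnaja1, Hspd1 and Hspe1 were not called higher with total counts alone, and nor were 2 genes of the citric acid cycle and 1 each of the gluconeogenesis, tubular injury, thick ascending limb and distal convoluted tubule lists. The median of the fat, adrenal and red cell list was 1.08 with no filter. Small list counts moved in places: without DBA/2J control replicate 1, 2 genes each of the glycolysis and NRF2 lists were higher, and with total counts alone 1 gene of the citric acid cycle was lower and 1 podocyte marker was higher. Replicate numbers showed no clear pairing of the samples: deviations of same-numbered samples correlated at -0.069 to 0.14, over 0.1 in 1 of 6 pairs. Of the 6 controls, 3 correlated best with their own number, and so few pairs cannot show whether a weak pairing exists. With the replicate number as a block, 14162 genes were called for the mean change, 13087 within C57BL/6J, 12773 within DBA/2J and 2677 as differing by strain, and the paired sign-flip test of the mitochondrial share gave p = 0.03125 (exact, 6 of 6 pairs higher). An added alternative, chosen after seeing the data, set genes with an empty group at their bound; it touched 1 or 2 genes in each of 4 lists, too few to move a median, and says nothing about stability. Genes under about 1 CPM rest on few counts, and 3 libraries a group limit the precision.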

Other observations

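Other gene groups moved in parts. Of 18 circadian clock genes 11 were lower and 5 higher under normoxia (median log2 fold change -0.65, edgeR's quasi-likelihood test at an adjusted p under 0.05). Ciart, a repressor of the clock, ran from 36.5 to 49.1 CPM in the controls to 0.609 to 3.02 CPM under normoxia (-5.22 ± 0.21 SE), and the repressors Bhlhe41 (-3.98 ± 0.10 SE) and Bhlhe40 (-3.42 ± 0.10 SE) fell too. Per1 (-3.09) and Cry1 (-3.28) fell, while Npas2 (1.86), Per3 (1.15) and the output factors Tef (1.59) and Hlf (1.59) rose. The clock time at which slices were collected is not given in the labels.

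Cholesterol synthesis was split as well, with 11 of 20 genes higher and 7 lower (median 0.36), which became 9 and 9 (median 0.09) with scaling by total counts. Among those that rose were the enzymes Cyp51 (2.43 ± 0.09 SE) and Mvd (2.2 ± 0.11 SE), and among those that fell were Msmo1 (-0.73) and Fdps (-0.62). Of 20 cell cycle genes 6 rose, 7 fell and 7 did not pass the test (median 0.30, and 0.03 with scaling by total counts). Those that fell were Ccne1, Pcna, Rrm2 (-1.34 ± 0.12 SE), Mcm2, Mcm3 (-1.35 ± 0.14 SE), Mcm5 and Mcm6 (-1.27 ± 0.19 SE). Those that rose were Ccnb1 (1.31), Aurkb, Ccnb2, Ccna2, Top2a and Mki67 (1.04), the last of which encodes the proliferation marker Ki-67 and ran from 2.74 to 9.41 CPM to 5.78 to 16.9 CPM. Cdk1, Ccnd1, Aurka, Plk1, Bub1, Birc5 and E2f1 did not pass.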
